A study of Mus musculus with 12 samples.

Results

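The genes described here are 205 mouse genes whose symbol is Zfp followed by a number alone and whose RNA was bright on the arrays of nascent RNA from unstimulated macrophages. They were chosen in 3 steps. Probe sets with 1 symbol of that form were taken, each symbol was represented by its probe set of highest mean across the 12 arrays, then the mean log2 intensity over the 2 arrays of nascent RNA from unstimulated cells had to be 7 or more. Zfp36, a CCCH zinc finger protein that binds RNA, was left out by the rule. Of 316 genes with such a symbol 205 passed and 111 did not, out of 19938 genes tested. For comparison, 8752 of all tested genes passed the same level, and they are called genes at or above 7 below. The values just inside the limit were 7.01 for Zfp959, 7.02 for Zfp692 and 7.02 for Zfp566, and those just outside were 6.996 for Zfp658, 6.99 for Zfp850 and 6.99 for Zfp974.

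All samples were macrophages grown from C3H/HeN mouse bone marrow over 17 days, with interleukin-3, interleukin-6 and stem cell factor early on and L-cell conditioned medium for its macrophage colony stimulating factor. The cells had no LPS (0 min) or 100 ng/ml of Escherichia coli LPS, the cell wall lipopolysaccharide that Toll-like receptor 4 senses, for 45 or 270 min. Every culture, the unstimulated ones included, had 200 µM 4-thiouridine for its last 35 min, and RNA that had taken up this uridine analogue was biotinylated and purified out of the total RNA as nascent RNA. The 6 groups are nascent RNA and total RNA at 0, 45 and 270 min, each with 2 Affymetrix Mouse Gene ST 1.0 arrays, 1 from each of 2 independent experiments.

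Zinc finger proteins of the C2H2 type read DNA through rows of small domains that each hold a zinc ion. Many in mammals also carry a KRAB domain, which recruits the co-repressor Trim28 and through it the histone methyltransferase Setdb1 and heterochromatin proteins, and many such proteins silence retroelements. Their genes often lie in clusters that arose by duplication. Symbols of the Zfp form also cover proteins with other roles, among them RNA-binding proteins, a ubiquitin ligase and subunits of co-regulator complexes.

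The arrays of a group were correlated at r = 0.981 to 0.989 across genes. Tnf, an early LPS response gene, was 5.27 log2 higher at 45 min than at 0 min in total RNA, and Il1b was 4.80 higher. All 11 tested macrophage markers lay above background on all 12 arrays, where background is the 95th percentile of olfactory receptor genes on that array. The same held for 1 of 6 mast cell and basophil markers, 0 of 6 neutrophil and progenitor markers, 1 of 5 T, B and NK cell markers, 2 of 5 fibroblast and endothelial markers and 0 of 3 dendritic markers. In total RNA, the count of the 6 mast cell and basophil markers above background differed between arrays. In experiments 1 and 2 it was 3 and 5 at 0 min. It was 4 and 4 at 45 min, and 3 and 4 at 270 min. Mcpt8, a basophil protease, read 6.76 and 9.24 at 0 min, 7.11 and 9.59 at 45 min, and 7.12 and 9.19 at 270 min in total RNA of experiments 1 and 2. Cpa3, a mast cell protease, read 6.48 and 8.41 at 0 min and 7.32 and 8.73 at 270 min. Fcer1a was also higher in total RNA of experiment 2 at each time. The rest of the list did not follow at each time. In total RNA Tpsb2 was higher in experiment 2 at 0 and 270 min, but read 6.24 and 6.13 at 45 min. Cma1 read 5.18 and 5.15 at 0 min, 5.18 and 4.86 at 45 min, and 5.28 and 5.66 at 270 min. Kit was higher in experiment 2 at 0 and 45 min, and read 7.55 and 7.58 at 270 min. The log2 of the summed level of the 6 was 8.70 to 9.32 in experiment 1 and 10.43 to 10.74 in experiment 2. Each group has 1 array of each experiment, and the part of these cells in the results was not tested. Of the fibroblast and endothelial markers, Pdgfrb read 9.52 and 9.52 in nascent RNA at 270 min, against 5.92 and 5.70 at 0 min, while Dcn and Cdh5 were under background on all arrays. The interquartile range of all genes was 2.24 to 3.02, narrowest on a nascent array at 45 min. In such bulk RNA, fewer cells of a type and less RNA per cell cannot be told apart, and intensities of different probe sets do not rank transcripts.

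Between 0 and 45 min the total RNA of the Zfp-named genes moved little gene by gene. A single gene, Zfp719, was called higher and 0 were called lower by limma at an adjusted p below 0.05. Among all genes 0.662% were called higher and 0.0201% lower, and among genes at or above 7 these shares were 1.11% and 0.0229%. At an unadjusted p below 0.05, limma counted 5 Zfp-named genes (2.44%) higher and 36 (17.6%) lower, where 2.73% and 1.47% of genes at or above 7 passed. With the experiment as a block, 2 were called lower. The median log2 difference of the 205 genes was -0.22, against -0.02 for genes at or above 7. Of the 205, 150 were below 0 in both experiments while 16 were above 0 in both. The matching counts over genes at or above 7 are not given here, so these counts are a description.

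Zfp719 stood apart from the other Zfp-named genes in this early comparison. In total RNA it read 7.39 and 7.52 at 0 min, 9.37 and 9.47 at 45 min, and 8.55 and 8.48 at 270 min. In nascent RNA it read 8.77 and 9.20 at 0 min, 11.51 and 11.27 at 45 min, and 10.12 and 10.00 at 270 min. Both fractions peaked at 45 min with no overlap between the times. The rise in total RNA at 45 min was 1.97 (SE 0.20, adjusted p = 9.9e-05), a 3.91-fold difference, and it was called in all 12 fits that left out 1 array. From 45 to 270 min, Zfp719 fell by 1.33 in nascent RNA (adjusted p = 3.2e-04) and by 0.91 in total RNA (adjusted p = 0.0065). The 250 bases before its start on chromosome 7, from the RefSeq promoter table (GRCm38.p6), are shown because Zfp719 was the only Zfp-named gene called in total RNA at 45 min, and capitals mark a match to the NRF1 motif.
Zfp719 (chr7:43579336-43579585, plus strand): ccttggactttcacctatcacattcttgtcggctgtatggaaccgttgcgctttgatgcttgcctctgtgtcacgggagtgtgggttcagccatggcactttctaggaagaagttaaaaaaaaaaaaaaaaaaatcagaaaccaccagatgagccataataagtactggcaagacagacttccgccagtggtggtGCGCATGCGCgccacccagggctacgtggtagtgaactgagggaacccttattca
Zfp131, a factor with a BTB domain, and Zfp263 had differences of 0.84 and 0.86 in total RNA at 45 min, which did not pass the test.

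By 270 min the total RNA of many Zfp-named genes was lower. Of the 205, 62 (30.2%) were called lower and 7 (3.41%) higher than at 0 min. The shares over all genes were 12% lower and 7.02% higher, and over genes at or above 7 they were 23.2% lower and 10.1% higher. The median difference was -0.43 for the Zfp-named genes, against -0.23 for genes at or above 7 and 0.07 for all genes. Both experiments had negative medians, -0.42 and -0.47. The count of lower genes was 40 without the array of total RNA at 0 min from experiment 2, and 45 with quantile scaling over all arrays, where the median was -0.27, against -0.12 for genes at or above 7. Among the 69 called genes, 22 had a dimmer group with both arrays under background, so that only a lower bound of the fold can be given, and 3 were under background in both groups. The array of total RNA at 270 min from experiment 2 had the highest count of Zfp-named genes under background, 71 of 205. The arrays of total RNA at 0 min had 5 and 7, and that at 270 min from experiment 1 had 39. Background itself differed: it was 6.72 on the first of these arrays, 6.24 and 6.32 at 0 min, and 6.24 at 270 min in experiment 1. The medians of the 205 genes at 270 min were 7.07 and 7.05 in experiments 1 and 2. These counts thus do not measure a fall alone. The 111 Zfp-named genes under the level had 15 called lower, 4 called higher and a median of -0.05.

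**Figure D1:**
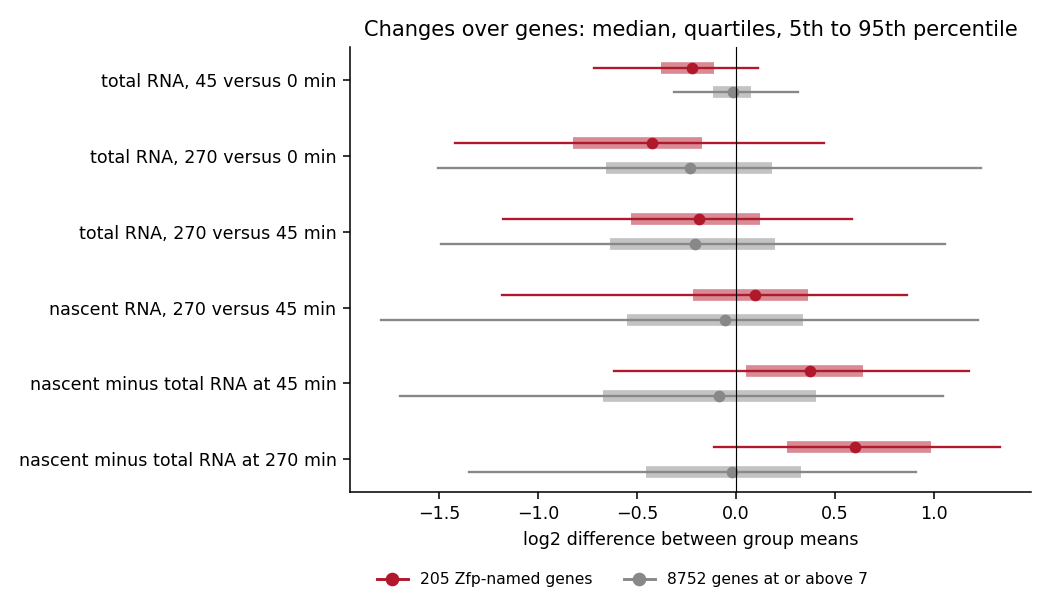
Log2 differences between group means (x axis) for 6 comparisons (y axis) in the 205 Zfp-named genes (red) and the 8752 genes at or above 7 (grey). Points are medians, thick bars quartiles and thin lines the 5th to 95th percentiles over genes; the median in total RNA at 270 against 0 min is -0.43 in red and -0.23 in grey.

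The falls in total RNA at 270 min were led by Zfp791, Zfp709, Zfp652 and Zfp979. Zfp791 read 7.64 and 8.08 at 0 min, 7.57 and 8.19 at 45 min, and 5.11 and 5.27 at 270 min in total RNA. In nascent RNA it read 8.65 and 9.16, 9.01 and 9.08, and 5.30 and 5.51 at the same times. Its values were alike at 0 and 45 min and had dropped on all 4 arrays at 270 min, where both fractions lay under background. The difference in total RNA at 270 against 0 min was -2.67 (SE 0.24, adjusted p = 4.0e-06), at least 2.61-fold lower. From 45 to 270 min Zfp791 was at least 5.05-fold lower in nascent RNA (adjusted p = 2.3e-07) and at least 2.64-fold lower in total RNA (adjusted p = 4.7e-06).

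Zfp709 read 7.70 and 8.11 at 0 min, 6.92 and 7.58 at 45 min, and 5.57 and 5.01 at 270 min in total RNA. Zfp652, whose human counterpart is known as a transcriptional repressor, read 9.16 and 9.31, 8.85 and 8.96, and 6.93 and 6.91 at these times. For Zfp979 the values were 7.75 and 8.36, 7.53 and 8.35, and 5.95 and 5.91. In all 3 genes both arrays at 270 min lay below every array at 0 and 45 min. At 270 against 0 min Zfp709 was at least 2.68-fold lower (adjusted p = 1.3e-05), Zfp652 was 4.99-fold lower (adjusted p = 9.8e-06) and Zfp979 was at least 2.97-fold lower (adjusted p = 2.1e-04). Next in size were Zfp825 with -1.67 (adjusted p = 2.5e-04), Zfp52 with -1.66 (adjusted p = 1.6e-04), Zfp944 with -1.59 (adjusted p = 0.0033) and Zfp101 with -1.59 (adjusted p = 1.2e-04), where Zfp944 and Zfp101 were at least 2.01-fold and 1.66-fold lower. Of the 62 lower genes, 36 were called in all 12 fits that left out 1 array.

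The 7 genes called higher in total RNA at 270 min were Zfp800, Zfp263, Zfp719, Zfp281, Zfp131, Zfp961 and Zfp598. Zfp800 read 8.26 and 8.66 at 0 min, 9.05 and 9.43 at 45 min, and 10.30 and 10.49 at 270 min in total RNA, and 9.28 and 9.06, 10.40 and 10.31, and 11.21 and 11.34 in nascent RNA. It was higher at each later time in both fractions, with no overlap. The difference at 270 against 0 min in total RNA was 1.94 (SE 0.21, adjusted p = 1.9e-05), or 3.83-fold. Zfp263 read 9.22 and 8.92 at 0 min, 9.89 and 9.97 at 45 min, and 10.71 and 10.31 at 270 min, a rise of 1.44 at 270 against 0 min (adjusted p = 6.4e-04). Zfp281, a factor of GC-rich promoters studied in mouse embryonic stem cells, read 8.61 and 9.03, 8.79 and 9.01, and 9.94 and 9.74, a rise of 1.02 (adjusted p = 0.0024). Its values at 0 and 45 min overlapped and both at 270 min were higher. Zfp719 was 1.06 higher (adjusted p = 0.0020). These 4 were called in all 12 fits that left out 1 array.

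The other 3 calls were lost in some of the fits that left out 1 array. Zfp131 was 0.95 higher (adjusted p = 0.0059), but 0.84 with an adjusted p of 0.064 without the array of total RNA at 0 min from experiment 1. Zfp961 was 0.67 higher (adjusted p = 0.041) and was not called without the array of total RNA at 0 min from experiment 2 (0.47, adjusted p = 0.30), that of total RNA at 270 min from experiment 1 (0.41, adjusted p = 0.24), or any of the 4 nascent arrays at 45 and 270 min (adjusted p = 0.052 to 0.055). Zfp598 was 0.63 higher (adjusted p = 0.025), and leaving out any of the 4 arrays of total RNA at 0 and 270 min gave an adjusted p of 0.059 to 0.17.

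**Figure D2:**
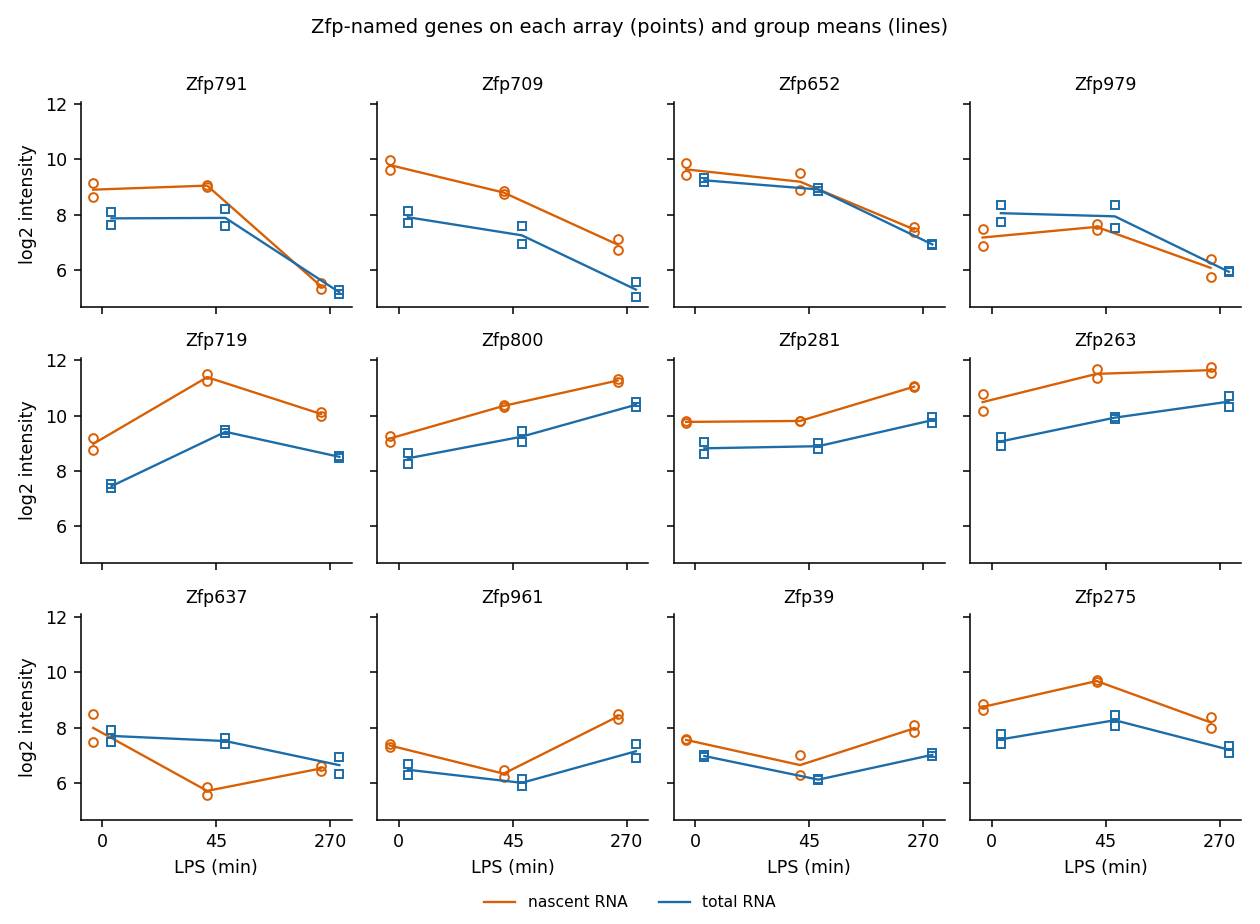
Log2 intensity (y axis) by LPS time in min (x axis, not to scale) for 12 Zfp-named genes in nascent RNA (orange) and total RNA (blue). Points are single arrays and lines join the means of 2 arrays; Zfp791 reads 5.30 and 5.51 in nascent RNA at 270 min, and Zfp719 peaks at 45 min.

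Within the stimulated cells, from 45 to 270 min, Zfp-named genes moved in both directions. In nascent RNA 22 were called higher and 20 lower. Over all genes 6.74% were called higher and 10.0% lower, and over genes at or above 7 the shares were 11.3% and 20.0%, against 10.7% and 9.76% of the Zfp-named genes. Their median was 0.09, against -0.05 for genes at or above 7. The count of higher genes depended on single nascent arrays: it was 11 and 7 without the array at 45 min from experiment 1 and 2, and 9 and 8 without the array at 270 min from experiment 1 and 2. The count of lower genes was 13 without the array at 45 min or at 270 min from experiment 1. In total RNA 10 were called higher and 34 lower, with background shares of 6.64% and 11.5% over all genes and 8.83% and 21.8% over genes at or above 7, and the median was -0.19 against -0.21. There the count of lower genes was 21 without the array of total RNA at 45 min from experiment 2. The count of higher genes was 5 without the array of total RNA at 45 min from experiment 1 or either at 270 min, and 6 without either nascent array at 270 min.

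The fractions, read on separate arrays of the same cultures, shared calls. Lower in both were 15 genes, 75% of the 20 in nascent RNA and 44.1% of the 34 in total RNA. Higher in both were 7, which is 31.8% of the 22 in nascent RNA and 70.0% of the 10 in total RNA. The same overlap over all genes is not given here, so these shares are a description and not a trait of the Zfp-named genes.

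**Figure D3:**
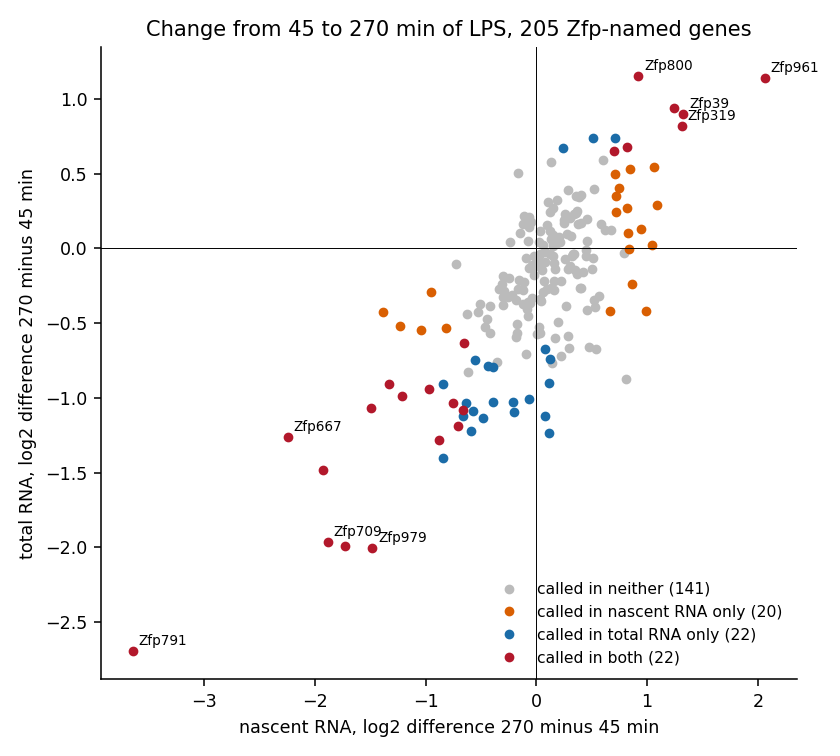
Log2 difference at 270 against 45 min of LPS in nascent RNA (x axis) and in total RNA (y axis) for the 205 Zfp-named genes. Colours give the calls: 22 genes called in both fractions, 20 in nascent RNA only, 22 in total RNA only and 141 in neither; Zfp791 is lowest in both.

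Among the falls in nascent RNA after Zfp791 were Zfp667, Zfp704, Zfp709, Zfp652, Zfp275, Zfp979 and Zfp703. Zfp667 read 7.28 and 7.24 at 0 min, 7.70 and 7.56 at 45 min, and 5.30 and 5.48 at 270 min in nascent RNA, and Zfp704 read 9.71 and 9.63, 9.60 and 9.52, and 7.83 and 7.44. Zfp275 read 8.63 and 8.85, 9.63 and 9.73, and 7.98 and 8.39. The first 2 were lower at 270 min than at either earlier time, and Zfp275 peaked at 45 min. At 270 against 45 min Zfp667 was at least 1.90-fold lower (adjusted p = 3.7e-07), Zfp704 was 3.80-fold lower (adjusted p = 7.6e-06) and Zfp275 was 2.82-fold lower (adjusted p = 2.9e-04). Zfp709 had a difference of -1.88 (adjusted p = 2.0e-04) and Zfp652 of -1.72 (adjusted p = 1.1e-04). Zfp979 was at least 1.80-fold lower (adjusted p = 0.0033), and was not called (adjusted p = 0.058) without the nascent array at 270 min from experiment 1. Zfp703, a co-repressor partner of Groucho proteins, had -1.38 (adjusted p = 0.0034) and was not called without the nascent array at 45 min from experiment 1 (-0.98, adjusted p = 0.070) or that at 270 min from experiment 2 (-1.16, adjusted p = 0.057). In total RNA Zfp317 (-1.40, adjusted p = 0.0028), Zfp704 (-1.48, adjusted p = 1.1e-04) and Zfp52 (-1.28, adjusted p = 0.0014) also fell, and Zfp667 was at least 1.32-fold lower (adjusted p = 8.0e-05).

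The rises in nascent RNA from 45 to 270 min were led by Zfp961, Zfp39, Zfp319 and Zfp281. Zfp961 read 7.40 and 7.30 at 0 min, 6.45 and 6.21 at 45 min, and 8.31 and 8.48 at 270 min in nascent RNA, and 6.67 and 6.27, 5.87 and 6.13, and 7.40 and 6.88 in total RNA. Zfp39 read 7.57 and 7.53, 6.99 and 6.29, and 8.10 and 7.84 in nascent RNA, and 7.01 and 6.93, 6.13 and 6.10, and 7.07 and 6.95 in total RNA. Both genes were lowest at 45 min in each fraction. Zfp961 was at least 3.42-fold higher at 270 than at 45 min in nascent RNA (adjusted p = 9.3e-06) and at least 1.94-fold in total RNA (adjusted p = 0.0017). Zfp39 was 2.51-fold higher in nascent RNA (adjusted p = 4.4e-04) and at least 1.77-fold in total RNA (adjusted p = 0.0085). Zfp319 rose by 1.31 (adjusted p = 3.6e-04) and Zfp281 by 1.24 (adjusted p = 5.1e-04) in nascent RNA. The nascent rises of these 4 were called in all 12 fits that left out 1 array. Zfp329 (1.08, adjusted p = 0.0034) was not called without the nascent array at 45 min from experiment 2 (0.87, adjusted p = 0.055), and Zfp160 (1.06, adjusted p = 0.022) was not called without any 1 of the 4 nascent arrays at 45 and 270 min (adjusted p = 0.050 to 0.19).

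In total RNA Zfp800 (1.15, adjusted p = 0.0016) and Zfp281 (0.94, adjusted p = 0.0045) were higher at 270 than at 45 min. Zfp319 (0.82, adjusted p = 0.012) was not called without the array of total RNA at 45 min (0.70, adjusted p = 0.088) or 270 min (0.72, adjusted p = 0.065) from experiment 1. Its second probe set differed in sign from the one used at 270 against 0 min in total RNA, -0.24 against 0.44. Zfp513 (0.74, adjusted p = 0.037) was not called without any 1 of the 4 arrays of total RNA at 45 and 270 min or of the 2 nascent arrays at 270 min (adjusted p = 0.057 to 0.17).

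Zfp709 and Zfp961 lie in 1 row of 4 Zfp-named genes on chromosome 8, in the order Zfp709, Zfp882, Zfp617 and Zfp961, with no other protein-coding gene of the RefSeq table between them. This row was picked after its values were seen. From 45 to 270 min in nascent RNA the differences along it were -1.88, -0.56, 0.09 and 2.06, and in total RNA -1.96, -0.75, -0.27 and 1.14. The outer genes moved in opposite directions in both fractions. Zfp709 in total RNA at 270 min and Zfp961 in both fractions at 45 min lay under background, where Zfp709 was at least 1.70-fold lower in total RNA. Zfp882 was called in total RNA (adjusted p = 0.029) and lay under background in nascent RNA at both times, and Zfp617 was called in neither fraction (adjusted p = 0.89 and 0.46). The 250 bases before the starts of the outer genes are shown because they differ in response, and capitals mark CCAAT in either strand.
Zfp709 (chr8:71881818-71882067, plus strand): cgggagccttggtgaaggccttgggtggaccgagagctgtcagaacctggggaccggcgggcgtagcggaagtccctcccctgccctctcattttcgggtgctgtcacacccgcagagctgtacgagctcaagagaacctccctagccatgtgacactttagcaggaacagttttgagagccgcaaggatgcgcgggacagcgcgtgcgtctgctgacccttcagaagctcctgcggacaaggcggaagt
Zfp961 (chr8:71950816-71951065, plus strand): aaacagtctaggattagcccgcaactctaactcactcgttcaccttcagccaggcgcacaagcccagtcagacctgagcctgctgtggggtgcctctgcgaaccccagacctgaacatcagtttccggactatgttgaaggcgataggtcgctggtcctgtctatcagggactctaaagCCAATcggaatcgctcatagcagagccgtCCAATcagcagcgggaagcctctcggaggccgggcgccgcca
Zfp961 had 2 CCAAT matches, and Zfp709 had no match to the 6 motifs searched in this window. Zfp-named genes with and without CCAAT were alike: from 45 to 270 min their nascent RNA medians were 0.11 (91 genes) and 0.06 (82 genes). In total RNA these medians were -0.22 and -0.23. A link between the motif and the response of the outer genes was not tested.

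The comparisons of stimulated with unstimulated nascent RNA use the arrays that chose the genes, so their values are a description. At 45 min 72 Zfp-named genes passed the same threshold as lower and 6 as higher than at 0 min, with shares of 5.88% and 3.05% over all genes and 12.3% and 4.48% over genes at or above 7. At 270 min 73 were lower and 8 higher, with shares of 14.2% and 8.87% over all genes and 29.0% and 10.6% over genes at or above 7. Leaving out the nascent array at 0 min or at 45 min from experiment 2, the count of lower genes at 45 min was 30, and without that at 45 min from experiment 1 it was 44. The count of lower genes at 270 min was 46 without the nascent array at 270 min from experiment 2. Of the 78 and 81 genes past the threshold at 45 and 270 min, 16 and 22 had a dimmer group with both arrays under background. The median differences were -0.59 at 45 min and -0.50 at 270 min, against -0.17 and -0.31 for genes at or above 7. With quantile scaling over all arrays the counts were 51 lower and 8 higher at 45 min, and 55 lower and 14 higher at 270 min. The medians were then -0.41 and -0.27, against -0.07 and -0.11 for genes at or above 7.

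Choosing the genes on the unstimulated nascent array of 1 experiment and reading the other experiment kept the level rule apart from the values read. The probe set of each gene was still that of highest mean over all arrays, those read included. The choice was thus not fully independent, and these values are a description too. Chosen in experiment 1 and read in experiment 2, 199 Zfp-named genes had a median of -0.72 at 45 min and 82.4% lay below 0, against 64.9% of genes at or above 7. With the experiments turned round, 211 genes had a median of -0.42 and 81.0% lay below 0, against 58.2%. At 270 min the medians were -0.58 and -0.40, with 81.4% and 80.1% below 0, against 66.7% and 64.2% of genes at or above 7.

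The largest early falls in nascent RNA were those of Zfp637, Zfp759, Zfp12 and Zfp773. Zfp637 read 7.46 and 8.51 at 0 min, 5.86 and 5.56 at 45 min, and 6.62 and 6.43 at 270 min in nascent RNA. It was under background on all 4 stimulated nascent arrays. Its total RNA was 7.47 and 7.92 at 0 min, 7.41 and 7.61 at 45 min, and 6.95 and 6.33 at 270 min, so the total RNA at 45 min overlapped that at 0 min. At 45 against 0 min nascent Zfp637 was at least 2.58-fold lower, Zfp759 at least 3.09-fold and Zfp773 at least 1.80-fold, and Zfp12 had a difference of -1.68. After Zfp719 (2.41), the largest early rises were Zfp131 (1.24), Zfp800 (1.18), Zfp263 (1.02), Zfp275 (0.94) and Zfp622 (0.80), a factor in maturation of the large ribosomal subunit. At 270 against 0 min the extremes in nascent RNA were Zfp791, at least 4.56-fold lower, and Zfp800, with a difference of 2.10.

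Nascent RNA exceeded total RNA for most Zfp-named genes, on the log2 scale of arrays that are each normalised to a common level. In the 6 cultures the median of nascent minus total RNA over the 205 genes was 0.65 and 0.74 at 0 min, 0.48 and 0.25 at 45 min, and 0.59 and 0.65 at 270 min. The medians of genes at or above 7 were -0.02 and 0.09, -0.01 and -0.16, and -0.08 and 0.03. In each culture the median of the Zfp-named genes was above that of genes at or above 7, and it was lowest in the culture at 45 min of experiment 2. The rule chose genes bright in unstimulated nascent RNA, so the 0 min values are a description, with 115 higher and 1 lower in nascent RNA where all genes had 7.58% and 8.42% and genes at or above 7 had 16.2% and 15.7%. The largest of these were Zfp709 (1.89) and Zfp87 (1.81), and the lowest was Zfp979 (-0.88).

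**Figure D4:**
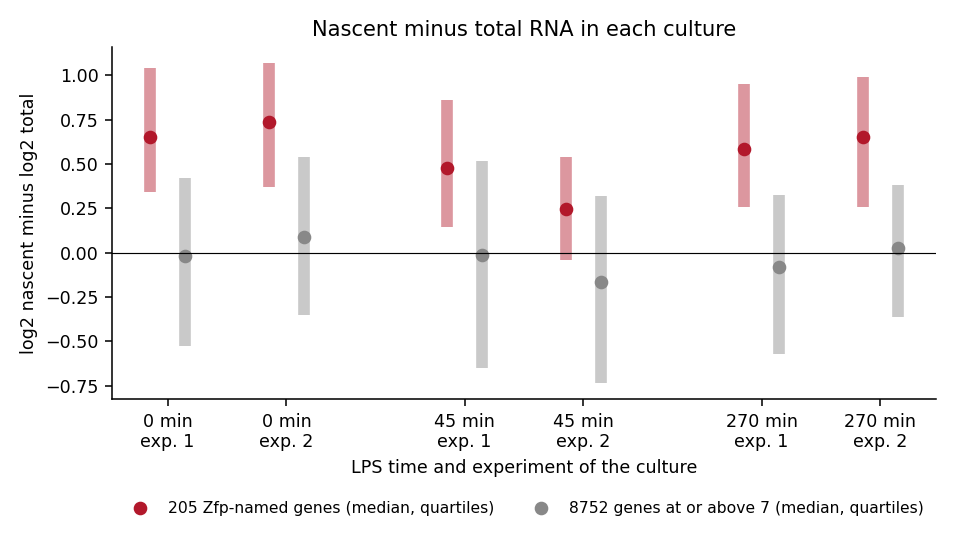
Log2 nascent minus log2 total RNA of the same culture (y axis) in the 6 cultures, by LPS time and experiment (x axis). Points are medians and bars quartiles over the 205 Zfp-named genes (red) or the 8752 genes at or above 7 (grey); red medians run from 0.25 to 0.74 and grey medians from -0.16 to 0.09.

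In stimulated cells the same difference was tested on arrays that did not enter the level rule. The genes were still those bright in unstimulated nascent RNA, and 157 of them also passed the level in unstimulated total RNA. A difference that lasts over time would carry this choice into the counts at 45 and 270 min, and its part was not tested. The genes at or above 7 given beside them passed the same level in nascent RNA. At 45 min 57 Zfp-named genes were called higher in nascent than in total RNA and 11 lower, with background shares of 11.2% and 14.2% over all genes and 16.9% and 27.6% over genes at or above 7. At 270 min 98 were called higher and 2 lower, with shares of 6.24% and 9.03% over all genes and 11.9% and 17.8% over genes at or above 7. Among these 100 calls, 18 had a dimmer fraction with both arrays under background, and 5 were under background in both fractions. At 45 min these counts were 3 and 1 of 68. Higher at both times were 48 genes, 84.2% of the 57 and 49.0% of the 98, and the overlap over all genes is not given here. Quantile scaling over all arrays moved the median of all genes at 45 min to 0.04, against 0.15 as deposited, and the calls to 89 higher and 5 lower, so that 94.7% of the calls were higher, against 83.8%. Under that scaling the median at 45 min was 0.51 for Zfp-named genes, against 0.08 for genes at or above 7, where the deposited values gave 0.37 against -0.09. Leaving out the 45 min culture of experiment 1 left 15 higher and 6 lower at 45 min, and leaving out that of experiment 2 left 3 lower. Without the 270 min culture of experiment 1 or 2, 43 or 41 were higher at 270 min. When genes were chosen on unstimulated total RNA instead, 159 Zfp-named genes passed, of which 42 at 45 min and 74 at 270 min were called higher. Over all genes, with no level rule, the shares called higher were 11.2% and 6.24%. The shares over all genes that pass the same level in total RNA are not given here.

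Zfp62 had 10.98 and 10.86 in nascent RNA against 8.89 and 9.73 in total RNA at 45 min, and 10.57 and 10.84 against 8.77 and 9.22 at 270 min. Zfp87 had 8.92 and 9.0 in nascent RNA against 7.27 and 7.30 in total RNA at 270 min. Nascent arrays were above total arrays in each of these comparisons with no overlap. The differences at 270 min were 1.71 (adjusted p = 9.7e-05) for Zfp62 and 1.68 (adjusted p = 1.1e-05) for Zfp87. At 45 min they were 1.97 for Zfp719 (adjusted p = 6.5e-07), 1.61 for Zfp62 (adjusted p = 9.9e-05) and 1.58 for Zfp263 (adjusted p = 1.1e-05). Without the 45 min culture of experiment 1 that of Zfp62 was 1.13 with an adjusted p of 0.088.

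Few Zfp-named genes were lower in nascent than in total RNA. At 45 min these were led by Zfp637, Zfp706, Zfp664 and Zfp358. Zfp706, a small protein studied in self-renewal of mouse embryonic stem cells, read 8.56 and 8.87 in nascent RNA against 9.84 and 10.86 in total RNA at 45 min. Zfp664 read 8.01 and 7.89 against 9.07 and 9.50. In both genes the nascent arrays lay below the total arrays. The differences were -1.63 for Zfp706 (adjusted p = 9.4e-06) and -1.33 for Zfp664 (adjusted p = 8.0e-05), and Zfp637 was at least 1.85-fold lower in nascent RNA (adjusted p = 3.9e-06). A second probe set of Zfp706 gave -0.90 and that of Zfp664 gave -0.12, so Zfp664 rests on 1 of 2 probe sets. Zfp358 had -1.16 (adjusted p = 4.5e-04), but -0.95 with an adjusted p of 0.077 without the 45 min culture of experiment 2. At 270 min the 2 lower genes were Zfp598 with -1.05 (adjusted p = 0.0011) and Zfp511 with -0.66 (adjusted p = 0.042). Zfp598 was not called without the 270 min culture of experiment 1 (-0.95, adjusted p = 0.11). Zfp511 was not called without any 1 of the 4 stimulated cultures (adjusted p = 0.079 to 0.52).

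The nascent minus total difference itself changed between 45 and 270 min in 7 Zfp-named genes by limma, 6 upward and 1 downward, with background shares of 1.41% and 1.80% over all genes and 2.55% and 3.03% over genes at or above 7. With the experiment as a block the counts were 23 and 3, and with quantile scaling over all arrays 2 and 2. None of the 7 was called in every fit that left out 1 culture: without either 45 min culture 0 were called upward, and without the 270 min culture of experiment 1 or 2 the upward counts were 3 and 2. Zfp637 had the largest value, 1.68 (SE 0.31, adjusted p = 0.0035), with stimulated nascent arrays under background.

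By role, a short list of sequence-specific factors held 3 of the 7 genes that were higher in total RNA at 270 min. The list was chosen by hand with earlier results of these data known. It does not hold every gene of the 205 whose protein reads DNA, so it gives no result for a role. Of the 9 listed genes among the 205, these 3 (Zfp281, Zfp131 and Zfp263) rose and 0 fell at 270 against 0 min. Among genes at or above 7, 10.1% were called higher and 23.2% lower. The median of the 9 was 0.08, against -0.23 for genes at or above 7. Zfp148, which binds GC-rich promoters, had -0.58 and Zfp384 had -0.23, neither called. Zfp410, known in mouse as an activator of Chd4, had 0.08 and Zfp335, known for a role in brain development, 0.18. The nascent RNA of 4 of the 9 at 45 min and 5 at 270 min was called above total RNA, with shares of 16.9% and 11.9% among genes at or above 7.

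The RNA and translation list had 9 members here, of which 1 rose (Zfp598) and 1 fell (Zfp106) in total RNA at 270 against 0 min, beside the same shares of 10.1% and 23.2%, with a median of -0.18. Zfp598, the ubiquitin ligase that acts on collided ribosomes, read 7.71 and 7.84 at 0 min, 7.71 and 7.76 at 45 min, and 8.37 and 8.44 at 270 min in total RNA, and 7.34 and 7.57, 7.15 and 7.08, and 7.22 and 7.49 in nascent RNA. Its total RNA was higher at 270 min without overlap, while its nascent RNA at 0 and 270 min overlapped. Zfp106, an RNA-binding protein, had -1.14 in total RNA at 270 against 0 min, and Zfp638, which is known to silence unintegrated retroviral DNA, had -0.25, not called. Zfp207, which binds the spindle checkpoint protein Bub3, was 0.82 higher in nascent RNA and 0.68 higher in total RNA at 270 than at 45 min. The call in nascent RNA was lost without the nascent array at 45 min from experiment 1 or either at 270 min (adjusted p = 0.060 to 0.14). That in total RNA was lost without any nascent array at 45 or 270 min, either array of total RNA at 270 min or that at 45 min from experiment 1 (adjusted p = 0.055 to 0.27), and with quantile scaling over all arrays (adjusted p = 0.084). Zfp346, a double-stranded RNA-binding protein, had 0.59 in total RNA and 0.60 in nascent RNA at 270 against 45 min, not called. Zfp622 was 1.04 lower in nascent RNA at 270 than at 45 min. Zfp451, a SUMO ligase, had -0.45 in total RNA at 270 against 0 min, not called.

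Of 7 co-regulator genes, 1 fell and 0 rose in total RNA at 270 against 0 min, beside 23.2% and 10.1% of genes at or above 7, with a median of -0.08. The one that fell was Zfp462, a heterochromatin-associated protein, with -0.63, and it was not called without either array of total RNA at 0 min or at 270 min (adjusted p = 0.064 to 0.17), without either nascent array at 270 min (adjusted p = 0.051) or with quantile scaling over all arrays (adjusted p = 0.30). In nascent RNA from 45 to 270 min Zfp462 (-1.23) and Zfp703 fell. Zfp217, a partner of CtBP co-repressors, had 0.44 in total RNA at 270 against 0 min, Zfp644, a partner of the histone methyltransferase G9a, -0.56, and Zfp592 and Zfp687, which work with Zmynd8, 0.10 and -0.42, none called. Among the KRAB proteins of imprinting and retroelement silencing, 3 of 5 tested genes were bright enough. Zfp445, which protects imprints, had -0.52, Zfp809, which silences retroviruses, -0.44, and Zfp568, a repressor of a placental Igf2 transcript, -0.04 in total RNA at 270 against 0 min, and none was called. At 270 min the nascent RNA of all 3 was called above total RNA, by 1.14, 0.71 and 1.01, where 11.9% of genes at or above 7 were. For Zfp445 and Zfp568 1 culture at 270 min was needed for the call: without that of experiment 2 Zfp445 had 0.98 (adjusted p = 0.070), and without that of experiment 1 Zfp568 had 0.95 (adjusted p = 0.095). Zfp809 was not called without either (adjusted p = 0.23 and 0.40).

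The co-repressor pathway that KRAB proteins recruit had 24 tested genes, of which 8 fell and 3 rose in total RNA at 270 against 0 min, with a median of -0.24. Over all genes 12% were called lower and 7.02% higher, and over genes at or above 7 these shares were 23.2% and 10.1%, with a median of -0.23. Trim28 itself read 9.22 and 8.76 at 270 min, against 9.70 and 9.56 at 0 min in total RNA, a difference of -0.64 that was not called (adjusted p = 0.11). Dnmt1, the maintenance DNA methyltransferase, had -1.82 (adjusted p = 4.8e-05), Dnmt3a, a de novo DNA methyltransferase, -1.50 (adjusted p = 2.4e-04), and Setdb1 -1.20 (adjusted p = 0.0011). Among those that rose were Morc3 with 1.03 (adjusted p = 0.0017) and Hdac1, a histone deacetylase, with 0.81 (adjusted p = 0.013). In nascent RNA from 45 to 270 min 5 fell and 3 rose, where 20.0% and 11.3% of genes at or above 7 were called. At 45 against 0 min in total RNA 0 were called, and 0 had an unadjusted p below 0.05.

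Other zinc finger families at the same level were read beside the Zfp-named genes. In total RNA at 270 against 0 min the median was -0.24 over 34 Zbtb genes, -0.38 over 13 Zscan and Zkscan genes, -0.83 over 18 Zfp genes with a letter in the symbol, -0.09 over 14 Zc3h genes, which have CCCH fingers, and 0.01 over 11 Klf genes. The median of nascent minus total RNA at 270 min was 0.60 for the 205 Zfp-named genes, 0.51 for Zbtb, 0.57 for Zscan and Zkscan, 0.90 for Zfp genes with a letter, 0.14 for Zc3h and 0.41 for Klf. All these medians were above 0, and no test between families was made.

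The 205 genes were unevenly placed. Chromosome 7 held 55 of them, chromosome 17 held 23, chromosome 13 held 18 and chromosome 8 held 17. Another Zfp-named gene was the next protein-coding gene on at least 1 side of 106 (51.7%), as it was for 2.85% of the 21900 protein-coding genes in the RefSeq table. The 23 genes on chromosome 17 had a median of -0.59 in total RNA at 270 against 0 min with 12 (52.2%) called lower. The 18 on chromosome 13 had -0.58 with 7 (38.9%) lower, the 17 on chromosome 8 had -0.38 with 5 (29.4%) and the 55 on chromosome 7 had -0.37 with 10 (18.2%). The share called lower was 12% over all genes and 23.2% over genes at or above 7. No test between chromosomes was made. Genes of such clusters have similar sequences, and how much signal their probe sets share was not tested. The 2 probe sets of Zfp788 held identical values.

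A RefSeq promoter, 250 bases before to 50 after the start, was listed for 173 of the 205 genes. The CpG count had a median of 16, against 23 in genes at or above 7. Of the 87 genes at or under that median, 34 (39.1%) fell in total RNA at 270 against 0 min (median -0.53), and of the 86 above it, 19 (22.1%) fell (median -0.30). Split at the same count, 26.2% of 1908 and 22.8% of 5177 genes at or above 7 fell, with medians of -0.28 and -0.24. A gene was counted for a motif, on either strand, if any of its listed promoters held it. CCAAT was found in 52.6% of the Zfp-named genes, against 41.8% of genes at or above 7 and 41.1% of all 27025 genes with a promoter. GGGCGG was found in 52.6%, against 70.6% and 38.2%, and TATAAA in 8.09%, against 8.10% and 15.7%. The NRF1 motif was found in 12.1%, against 13.2% and 5.19%, and CCGGAAG in 21.4%, against 23.1% and 9.93%. Each motif was counted by itself, and overlaps between motifs were not removed.

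The core of the site that ZNF143 binds in human cells was found in 8 of the 173 genes (4.62%). The shares were 0.917% of genes at or above 7 and 0.322% of all genes with a promoter. A match describes the letters and does not show a bound site. The 8 windows are shown because this motif had the largest ratio of shares among the 6 searched, a comparison made without a test. Capitals mark the motif, which lies on the same strand in Zfp692 and Zfp933 and on the opposite strand in the other genes, and each line is 5′ to 3′ along the gene.
Zfp1 (chr8:111643403-111643442, plus strand): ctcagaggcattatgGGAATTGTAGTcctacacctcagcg
Zfp108 (chr7:24254712-24254752, plus strand): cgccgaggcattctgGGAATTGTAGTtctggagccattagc
Zfp128 (chr7:12881148-12881177, plus strand): gcgcgtggccttctgGGAATTGTAGTctca
Zfp180 (chr7:24081860-24081896, plus strand): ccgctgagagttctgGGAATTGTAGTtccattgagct
Zfp58 (chr13:67500527-67500567, minus strand): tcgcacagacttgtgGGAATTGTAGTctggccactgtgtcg
Zfp692 (chr11:58307006-58307046, plus strand): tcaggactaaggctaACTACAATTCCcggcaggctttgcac
Zfp93 (chr7:24270332-24270372, plus strand): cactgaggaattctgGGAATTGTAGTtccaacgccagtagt
Zfp933 (chr4:147848425-147848465, minus strand): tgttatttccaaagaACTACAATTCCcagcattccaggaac
In all 8 the motif began 15 to 71 bases before the start. The 8 genes had a median of -0.35 in total RNA at 270 against 0 min with 2 called lower (25%, against 23.2% of genes at or above 7), Zfp58 (at least 1.35-fold) and Zfp933 (-0.94), and 0 called higher. Zfp108 and Zfp93, neighbours on chromosome 7, had 0.12 and 0.12, and Zfp692 had -0.10. These genes are named for the motif, after their values were seen.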

How the data were processed

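Each probe set has a linear intensity per array, deposited by the authors. The submitters' processing notes name RMA and Affymetrix Expression Console. The sources used here give neither versions nor whether the 12 arrays were normalised jointly. Amplification started from 200 ng of total or 100 ng of nascent RNA, per the labels' protocols. RMA compresses differences of dim genes, and normalisation to a common level makes all changes relative to the other genes of an array.

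From there log2 was taken. The platform annotation gave 1 symbol to 21789 of 35557 probe sets and several to 1621, and did not list 12147; 21698 of the identifiers were in the RefSeq table (GRCm38.p6), which changed 0 symbols. The 19938 genes were fitted with limma 3.58.1 in R 4.3.3, with 1 mean per group over all 12 arrays, an intensity trend, and Benjamini-Hochberg adjustment over all genes. Nascent minus total RNA was fitted on the 6 differences within cultures, with 1 mean per time. Differences are log2, with n = 2 per group, and limma's standard error (SE). Only 2 experiments limit the precision.

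Background on an array is the 95th percentile of olfactory receptor genes. Where both arrays of the dimmer group were under it, a fold is given as "at least": the brighter mean over the dimmer group's mean after raising each array's value to background. Python 3.11.15, pandas 2.3.3 and matplotlib 3.10.9 made tables and figures. The test was tried on simulated data.

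Genes, role lists and markers were chosen with earlier results of these data known, and the lists of sequence features and the background level after the values were seen. Named genes are, in each comparison, the 8 largest falls and 6 largest rises with 1 sign in both experiments (called ones where tested), the brightest genes, those next to the level limit and the role lists; other genes named are said to be picked later. Experiment numbers pair the samples, since the labels call the experiments independent; deviations from group means were correlated at r = -0.29 to 0.64 over 15 pairs of groups, with 10 over 0.1. Protein features planned for these genes were not analysed here.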

Additional observations from a re-analysis of the deposited data

Results flagged for a closer look

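In 7 Zfp-named genes the response from 45 to 270 min differed between nascent and total RNA by limma's test of that difference. The change in nascent minus total RNA was 1.68 for Zfp637 (adjusted p = 0.0035), 1.41 for Zfp358 (adjusted p = 0.013), 1.34 for Zfp946 (adjusted p = 0.029), 1.21 for Zfp706 (adjusted p = 0.030), 1.10 for Zfp664 (adjusted p = 0.049), 1.09 for Zfp90 (adjusted p = 0.047) and -0.98 for Zfp667 (adjusted p = 0.048). Both experiments had the same sign in each. Zfp358 read 7.67 and 7.54 in nascent RNA at 45 min and 8.62 and 8.57 at 270 min, with 8.62 and 8.90, and 8.14 and 8.54 in total RNA. The nascent RNA of Zfp946 and Zfp637 lay under background on all stimulated arrays. Zfp667 lay under background in both fractions at 270 min. Without the 45 min culture of experiment 1 or 2, 0 of the 7 were called (adjusted p = 0.083 to 0.22, and 0.18 to 0.51). The mean of all probe sets gave 0.62 for Zfp664 (adjusted p = 0.34) and 1.04 for Zfp706 (adjusted p = 0.062).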

How the results depend on the processing

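Counts of Zfp-named genes called are given as higher and lower. With the experiment as a replicate block, total RNA at 45 against 0 min had 2 lower calls, and there were 23 and 3 for the change in nascent minus total RNA; no other count moved by over 1.5 times. Quantile scaling over all arrays gave 14 higher in nascent RNA at 270 against 0 min (20.3% of its calls, against 9.88%), 89 and 5 for nascent minus total RNA at 45 min, 1 lower for it at 270 min, and 2 and 2 for its change. Quantile scaling within each fraction gave 11 higher in total RNA and 13 higher in nascent RNA at 270 against 0 min, 7 lower for nascent minus total RNA at 45 min and 2 higher for its change. The limit of 8 left 120 genes, with 36 lower in total RNA at 270 against 0 min, 6 and 20 in total RNA from 45 to 270 min, 41 lower in nascent RNA at 45 and at 270 min, 5 and 0 lower for nascent minus total RNA at 45 and 270 min, and 0 lower for its change. Choosing on unstimulated total RNA, added after the data were seen, gave 43 lower in nascent RNA at 45 min and 0 lower for the change.

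Leaving out 1 array gave 1 higher and 0 to 1 lower in total RNA at 45 min, 5 to 7 and 40 to 64 at 270 min, 5 to 10 and 21 to 39 from 45 to 270 min. In nascent RNA it gave 7 to 24 and 13 to 24 from 45 to 270 min, 3 to 6 and 30 to 76 at 45 against 0 min, and 6 to 8 and 46 to 79 at 270 against 0 min. Leaving out 1 culture gave 15 to 76 and 3 to 13 for nascent minus total RNA at 45 min, 41 to 110 and 0 to 2 at 270 min, and 0 to 23 and 0 to 3 for its change. Fewer genes or samples enter the fits with a stricter limit or a left-out array; otherwise the cause was not tested. Quantile scaling over all arrays also moved the medians from 45 to 270 min to -0.05 in total RNA and 0.17 in nascent RNA, and that of nascent RNA at 270 against 0 min to -0.27. Of 2475 alternative values of named genes and medians, 2292 stayed the same, 170 fell short of the threshold, 13 moved and 0 reversed in sign. A second probe set read alone was not among these settings. For Zfp319 it differed in sign in total RNA at 270 against 0 min. Signal over background limits the Zfp-named genes most in total RNA at 270 min.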
